A study of Mus musculus with 8 samples.

Results

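The classical cadherins and the catenins that bind them were examined in SV-LECs, an SV40-immortalized mouse lymphatic endothelial cell line that was established from mesenteric adventitial tissue. Of the 55471 genes in the count table, 10 were chosen by symbol: the 7 cadherin genes Cdh1, Cdh2, Cdh3, Cdh4, Cdh5, Cdh11 and Cdh13, and the 3 catenin genes Ctnna1, Ctnnb1 and Ctnnd1. All 10 were found, 6 of them had enough reads to be tested, and Cdh1, Cdh4, Cdh5 and Cdh13 did not. Poly(A) RNA was sequenced from cells that were left untreated and from cells exposed to 10 ng/ml TGFβ1 during 72 h, with 4 libraries per group. All 8 libraries came from this single line, and the study's methods call the 4 libraries of a group technical replicates, so p-values measure only the spread between such libraries. The comparison asks which junction genes of a lymphatic endothelial line differ in mRNA level after exposure to TGFβ1.

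Classical cadherins are transmembrane proteins that join neighboring cells through calcium-dependent contacts between like molecules. Their cytoplasmic tails bind p120-catenin (Ctnnd1), which keeps cadherins at the cell surface, and β-catenin (Ctnnb1), which in turn binds α-catenin (Ctnna1), the link to actin filaments. β-catenin is also the transcriptional effector of canonical WNT signaling. In endothelium, VE-cadherin (Cdh5) is the defining cadherin of the adherens junction, N-cadherin (Cdh2) is typically found at contacts with mural cells, and the replacement of E-cadherin (Cdh1) by N-cadherin is a widely used sign of epithelial-mesenchymal transition.

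After exposure to TGFβ1, mRNA levels of Cdh2, Cdh11, Ctnnb1 and Ctnnd1 rose and those of Cdh3 and Ctnna1 fell, by edgeR's likelihood ratio test at an FDR below 0.05. Ctnnd1, Cdh2 and Cdh11 changed most, by 2.03-fold, 1.74-fold and 1.66-fold, whereas Ctnnb1 and Ctnna1 differed by 1.11-fold and 1.085-fold. VE-cadherin and E-cadherin were at or near 0 in both groups. All 6 tested members passed the test, 4 of them higher and 2 lower, but so did 75.6% of the 13818 genes tested, 37.6% higher and 38.0% lower. Groups did not overlap for any of the 6, which was also the case for 69.8% of all genes tested. Only Ctnnd1 also passed 2-fold, against 17.5% of all genes, and its call rests on a log2 change of 1.02. Because most genes passed the test, the size of each change and the level behind it are given for each member.

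Total counts ranged from 19182616 to 26077972 in untreated and from 18952504 to 26386941 in TGFβ1-treated libraries. Values are given as CPM, the counts of a gene relative to the library total after TMM scaling, and where genes are compared with each other as TPM, which also divides by the exon length of each gene. A count of 3, used as the detection floor, equalled 0.113 to 0.152 CPM in untreated and 0.116 to 0.162 CPM in treated libraries, and this floor covers counting error only. The label of the line was checked against 16 endothelial and lymphatic markers, of which 10 were above the floor in at least 1 library and 6 at or under it in all. Several defining markers were at or near the floor: Pecam1 had 1 to 5 counts per library, Lyve1 0 to 3, Prox1 0 to 2, Cldn5 0 to 1, and Tie1 and Erg had no counts. Podoplanin (Pdpn) and VEGFR3 (Flt4), which lymphatic endothelium also expresses, were well detected, at 342 ± 19.5 and 21.6 ± 1.23 CPM in untreated cells (SD, n = 4). The VEGF receptor genes Flt1 and Kdr were detected as well, at 17.6 ± 0.671 and 11.6 ± 0.548 CPM in untreated cells (SD, n = 4). In treated cells they were at 41.7 ± 2.64 and 22.1 ± 0.761 CPM (SD, n = 4). Fli1, Egfl7 and Esam were lower, at 7.92, 5.83 and 2.85 CPM in untreated cells. In a bulk sample, fewer cells of a type and less RNA per cell cannot be told apart.

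Among the cadherins, Cdh11, a type II cadherin of mesenchymal cells, was the most abundant. Cdh11 was measured at 1194, 1175, 1200 and 1178 CPM in untreated libraries and at 1984, 1965, 1955 and 1976 CPM in treated libraries. The libraries of a group lay within a narrow band, and every treated library was above every untreated one. The mean rose from 1187 ± 12.1 to 1970 ± 12.7 CPM (SD, n = 4), a log2 fold change of 0.73 (SE 0.0344, 95% confidence interval 0.66 to 0.80, edgeR FDR 3.94e-98). Of all genes tested, 73.5% changed less in either direction.

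Cdh2, or N-cadherin, is a type I cadherin of neural, muscle and mesenchymal cells. It was measured at 109, 106, 116 and 125 CPM in untreated and at 194, 197, 198 and 205 CPM in treated libraries. The groups were well separated, and the fourth untreated library was the highest of its group. Cdh2 rose from 114 ± 8.58 to 198 ± 4.33 CPM (SD, n = 4), with a log2 fold change of 0.80 (SE 0.0523, 95% confidence interval 0.70 to 0.90, edgeR FDR 1.16e-51).

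Cdh3, or P-cadherin, a type I cadherin best known from basal epithelial layers, moved the other way. It was measured at 395, 405, 393 and 362 CPM in untreated and at 283, 274, 285 and 286 CPM in treated libraries. All treated libraries were below all untreated ones, of which the fourth was the lowest. Cdh3 fell from 389 ± 18.4 to 282 ± 5.59 CPM (SD, n = 4), a log2 fold change of -0.46 (SE 0.0436, 95% confidence interval -0.55 to -0.38, edgeR FDR 9.27e-26), or 1.38-fold lower.

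**Figure D1:**
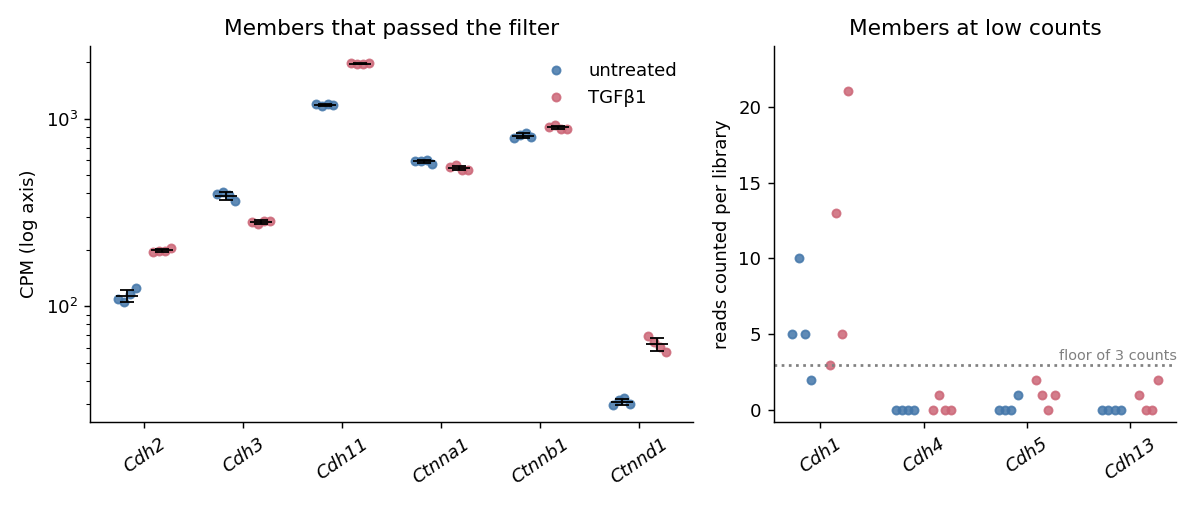
Level of the 10 members in the 8 libraries, with CPM on a log axis for the 6 tested genes (left) and read counts for the 4 others (right). Points are single libraries in replicate order, black bars are means ± SD, and the dotted line is the floor of 3 counts: treated points of Cdh2, Cdh11, Ctnnb1 and Ctnnd1 lie above the untreated ones, those of Cdh3 and Ctnna1 below, and Cdh4, Cdh5 and Cdh13 stay under the floor.

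The remaining cadherins had too few reads for the test across all genes. Cdh1, or E-cadherin, the principal cadherin of epithelia, had 5, 10, 5 and 2 counts in untreated libraries and 3, 13, 5 and 21 in treated libraries. These ranges overlapped, and the means of 0.234 ± 0.112 and 0.464 ± 0.311 CPM (SD, n = 4) showed no detectable difference at this depth (exact two-sided permutation test, p = 0.257). Cdh5, or VE-cadherin, had 0, 0, 0 and 1 counts in untreated and 2, 1, 0 and 1 counts in treated libraries, all of them at or under the floor (exact two-sided permutation test, p = 0.371). Cdh4, or R-cadherin, a type I cadherin known from retina, had a single count in 1 treated library and none elsewhere. Cdh13, or T-cadherin, which lacks a cytoplasmic tail and is held in the membrane by a lipid anchor, had no counts in untreated libraries and 1, 0, 0 and 2 counts in treated libraries. No fold change is given for Cdh4, Cdh5 and Cdh13, because both groups were at or under the floor. The same exact test gave p = 0.0286 for each of the 6 tested members, which is the smallest value that the 70 splits of 4 against 4 libraries allow, and it was run on all 10 members without adjustment.

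Per length, the mean of Cdh11 was 4148-fold above the mean floor of Cdh5 in untreated cells and 6494-fold above it in treated cells. VE-cadherin mRNA was thus not detectable above the floor at this depth in either group. Of the 10 genes, 5 lie on chromosome 8 (GRCm38): Cdh11 at chr8:102632095-102785642 on the minus strand, and Cdh5 at chr8:104101625-104144511, Cdh3 at chr8:106510891-106557297, Cdh1 at chr8:106603351-106670246 and Cdh13 at chr8:118283733-119324921 on the plus strand. Cdh3 and Cdh1 are separated by 46053 bases with 2 annotated genes in between, and Cdh3 had 5224 to 10787 counts per library and Cdh1 2 to 21. The other genes of this chromosome with a symbol of Cdh and a number, Cdh8, Cdh15 and Cdh16, had 0 to 1 counts. Cdh4 lies at chr2:179442431-179899373 on the plus strand.

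**Figure D2:**
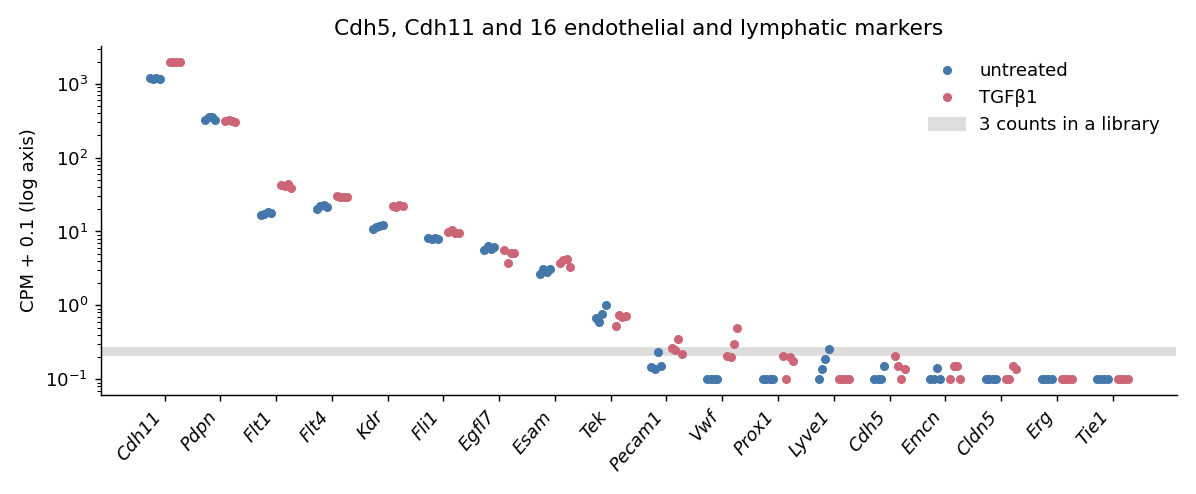
CPM plus 0.1 on a log axis for Cdh11, Cdh5 and the 16 endothelial and lymphatic markers, with 1 point per library and a grey band at the level of 3 counts. Cdh11 and Pdpn lead in every library, with mean levels of 1187 and 342 CPM in untreated cells, whereas Cdh5 lies below the band in all 8 libraries together with Prox1, Emcn, Cldn5, Erg and Tie1.

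Among the catenins, Ctnnd1 changed most. It encodes p120-catenin, the armadillo protein that binds next to the membrane and slows the internalization of cadherins. Ctnnd1 was measured at 29.7, 31.7, 32.2 and 29.9 CPM in untreated and at 69.2, 64.4, 60.9 and 57.3 CPM in treated libraries. Every treated library was above every untreated one, and the first treated library was the highest. Ctnnd1 rose from 30.9 ± 1.25 to 62.9 ± 5.08 CPM (SD, n = 4), with a log2 fold change of 1.02 (SE 0.0655, 95% confidence interval 0.89 to 1.15, edgeR FDR 7.76e-54), more than 83.1% of all genes tested. The interval extends to both sides of 2-fold, and without untreated replicate 1 or TGFβ1 replicate 1 the log2 fold change was 1.00 and 0.97 and the gene no longer passed 2-fold.

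The level of Ctnnd1 is uncertain, and so is the part of the gene that its change describes. Ctnnd1 lies at chr2:84600071-84650765 on the minus strand (GRCm38), and 61.2% of its exon bases, including 96.9% of its coding bases, are also annotated as exons of Gm28635 on the same strand. Gm28635 had 0 counts in every library. Whether reads in the shared exons were credited to Ctnnd1 or discarded is not given in the sources used here. If they were discarded, the fold change describes only the exon bases that Ctnnd1 does not share, of which 96.8% lie outside its coding sequence. Over its whole exon length Ctnnd1 had 17.2 ± 0.743 TPM in untreated and 34.1 ± 3.04 TPM in treated cells, and over the exon bases that it does not share it would have 44.4 ± 1.92 and 88.1 ± 7.83 TPM (SD, n = 4).

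Ctnnb1, or β-catenin, was among the most abundant members. It was measured at 791, 817, 845 and 802 CPM in untreated and at 901, 926, 884 and 888 CPM in treated libraries. The groups did not overlap, although the highest untreated and the lowest treated library were close. Ctnnb1 rose from 814 ± 23.1 to 899.9 ± 19.1 CPM (SD, n = 4), a log2 fold change of 0.14 (SE 0.0385, 95% confidence interval 0.07 to 0.22, edgeR FDR 0.000287). With scaling to total counts only, the log2 fold change was 0.08 and the call was lost (edgeR FDR 0.0546). Ctnnb1 lies at chr9:120929216-120960507 on the plus strand, and 14.6% of its exon bases overlap exons of Ulk4 on the opposite strand. Whether counting used the strand is not given in the sources used here.

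Ctnna1, or αE-catenin, was the only catenin that fell. It was measured at 595, 596, 604 and 574 CPM in untreated and at 550, 567, 533 and 535 CPM in treated libraries. The treated libraries were all below the untreated ones by a small margin. Ctnna1 fell from 592 ± 13.2 to 546 ± 15.8 CPM (SD, n = 4), with a log2 fold change of -0.12 (SE 0.0389, 95% confidence interval -0.19 to -0.04, edgeR FDR 0.00373). Of all genes tested, 16.9% changed less than Ctnna1.

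**Figure D3:**
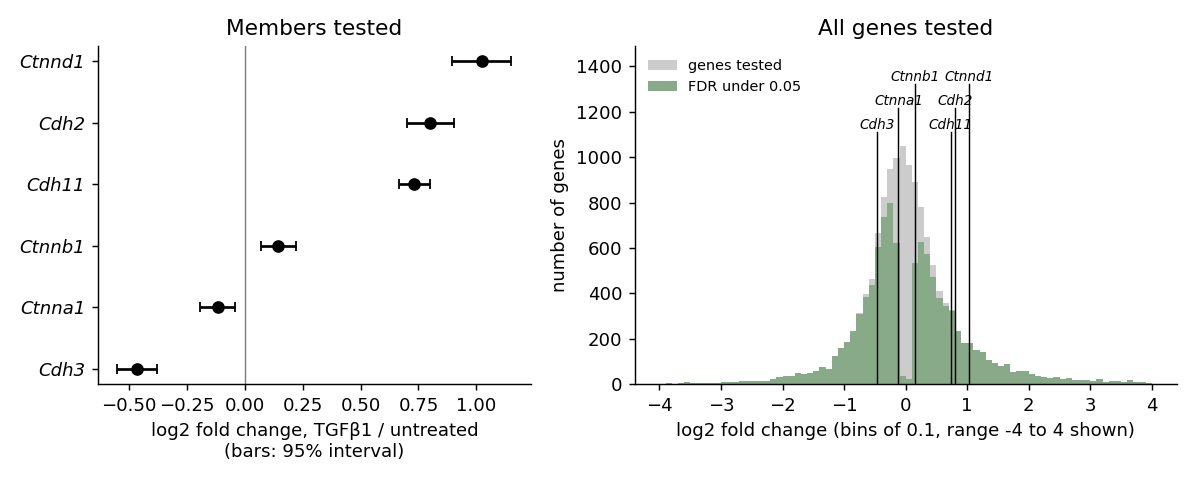
Log2 fold changes, TGFβ1 over untreated, of the 6 tested members with 95% confidence intervals (left) and of all 13818 genes tested as a histogram in bins of 0.1, with the members marked (right). Ctnnd1 at 1.02, Cdh2 at 0.80 and Cdh11 at 0.73 lie in the right flank, Cdh3 at -0.46 in the left flank, and Ctnnb1 at 0.14 and Ctnna1 at -0.12 near the center.

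Promoter sequences are shown for the catenins that rose, Ctnnd1 by the most and Ctnnb1 by the least of the members that went up. RefSeq promoter windows (GRCm38.p6, 300 bases that end shortly after a gene start) matched 2 of the 10 members, Ctnnb1 and Ctnnd1, with 2 windows each. Both Ctnnd1 windows and the upstream Ctnnb1 window are printed 5′ to 3′ on the gene's strand. Capitals mark CAGAC or its reverse complement GTCTG, the core of the element bound by SMAD proteins, the transcription factors of TGFβ signaling.
Ctnnd1 upstream window, chr2:84658928-84659227, minus strand: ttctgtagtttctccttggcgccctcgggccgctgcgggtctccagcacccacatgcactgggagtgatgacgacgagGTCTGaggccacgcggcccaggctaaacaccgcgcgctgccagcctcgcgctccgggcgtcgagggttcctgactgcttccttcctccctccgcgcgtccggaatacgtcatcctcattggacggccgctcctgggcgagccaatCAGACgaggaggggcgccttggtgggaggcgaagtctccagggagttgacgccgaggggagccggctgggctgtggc
Ctnnd1 downstream window, chr2:84650691-84650990, minus strand: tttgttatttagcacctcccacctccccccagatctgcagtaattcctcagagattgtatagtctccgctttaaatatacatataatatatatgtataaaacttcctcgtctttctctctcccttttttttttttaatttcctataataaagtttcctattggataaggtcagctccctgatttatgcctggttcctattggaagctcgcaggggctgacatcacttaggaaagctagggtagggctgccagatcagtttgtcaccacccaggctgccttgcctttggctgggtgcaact
Ctnnb1 upstream window, chr9:120933150-120933449, plus strand: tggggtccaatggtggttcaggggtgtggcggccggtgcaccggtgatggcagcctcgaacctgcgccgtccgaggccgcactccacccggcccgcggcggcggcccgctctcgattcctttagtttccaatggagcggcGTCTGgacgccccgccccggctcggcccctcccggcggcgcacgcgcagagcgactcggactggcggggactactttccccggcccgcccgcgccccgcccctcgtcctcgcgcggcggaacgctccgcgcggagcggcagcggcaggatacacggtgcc
The upstream Ctnnd1 window held 2 matches, the downstream Ctnnd1 window none, the printed Ctnnb1 window 1, and the other Ctnnb1 window, which overlaps it and is not printed, none. Of all 32851 promoter windows of this length, 49.6% held at least 1 match on either strand. The E-box CACCTG (reverse complement CAGGTG), which EMT transcription factors of the SNAI and ZEB families bind, was in none of the 4 windows and in 20.2% of all windows. The Ctnnd1 windows differed in composition, with 30 CpG dinucleotides and 67.7% G or C upstream against 3 and 42.7% downstream, and the Ctnnb1 window had 46 and 75.3%. The median window had 7 CpG and 52.7% G or C. The upstream Ctnnd1 window lies outside the annotated span of Ctnnd1 given above and inside that of Gm28635, which extends from 84601439 to 84678041. A match is a description of the letters only, and which start the cells used cannot be read from counts per gene.

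Because genes differ in length, the order of the members was set on TPM. In untreated cells the order was Ctnnb1 with 639 ± 19.3 TPM, Cdh11 with 544 ± 2.81, Ctnna1 with 376 ± 7.74, Cdh3 with 362 ± 17.2, Cdh2 with 57.6 ± 4.40 and Ctnnd1 with 17.2 ± 0.743 (SD, n = 4). Ctnna1 and Cdh3 could not be separated, as their ranges overlapped, and the other neighbors did not overlap. In treated cells Cdh11 came first with 878 ± 11.0 TPM, before Ctnnb1 with 688 ± 18.3, Ctnna1 with 337 ± 11.7, Cdh3 with 255 ± 4.49, Cdh2 with 97.6 ± 1.48 and Ctnnd1 with 34.1 ± 3.04 (SD, n = 4), and on these lengths no neighbors overlapped. Over its unshared exon bases, treated Ctnnd1 would range from 79.4 to 97.7 TPM and overlap Cdh2, with 96.5 to 99.8 TPM. Among all genes, Cdh11 went from rank 233 to rank 100 and Cdh3 from rank 439 to rank 671.

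The summed level of the 7 cadherins was 963 ± 14.3 TPM in untreated and 1231 ± 11.8 TPM in treated cells (SD, n = 4), and its composition shifted toward Cdh11. Cdh11 made up 56.4 ± 0.752% of this sum in untreated and 71.3 ± 0.369% in treated cells. The share of Cdh3 was 37.5 ± 1.27% and 20.7 ± 0.322%, and that of Cdh2 5.99 ± 0.537% and 7.93 ± 0.156%. Cdh1, Cdh4, Cdh5 and Cdh13 together held 0.0229% and 0.0379%. No test was made on these shares, which describe the same libraries as the fold changes.

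The ratio of Cdh11 to Cdh2 was 9.89, 10.1, 9.38 and 8.53 in untreated and 9.25, 9.02, 8.96 and 8.75 in treated libraries. The first 3 untreated libraries were above all treated ones and the fourth below them, so the ranges overlapped because of this library, and the difference between the changes of Cdh2 and Cdh11 was not tested. The ratio of Cdh3 to Cdh2 was 6.32 ± 0.742 and 2.61 ± 0.0629 (SD, n = 4). Relative to the cadherin sum, Ctnna1 went from 0.390 to 0.274 and Ctnnb1 from 0.664 to 0.559, while Ctnnd1 went from 0.0179 to 0.0277. The ratio of Ctnnb1 to Ctnna1 was 1.70 ± 0.0403 and 2.04 ± 0.0168 (SD, n = 4). The shares depend on the length used: with the mean transcript length in place of all exon bases, Cdh3 held 20.6% and 10.2% and Cdh11 72.7% and 82.0% in untreated and treated cells.

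**Figure D4:**
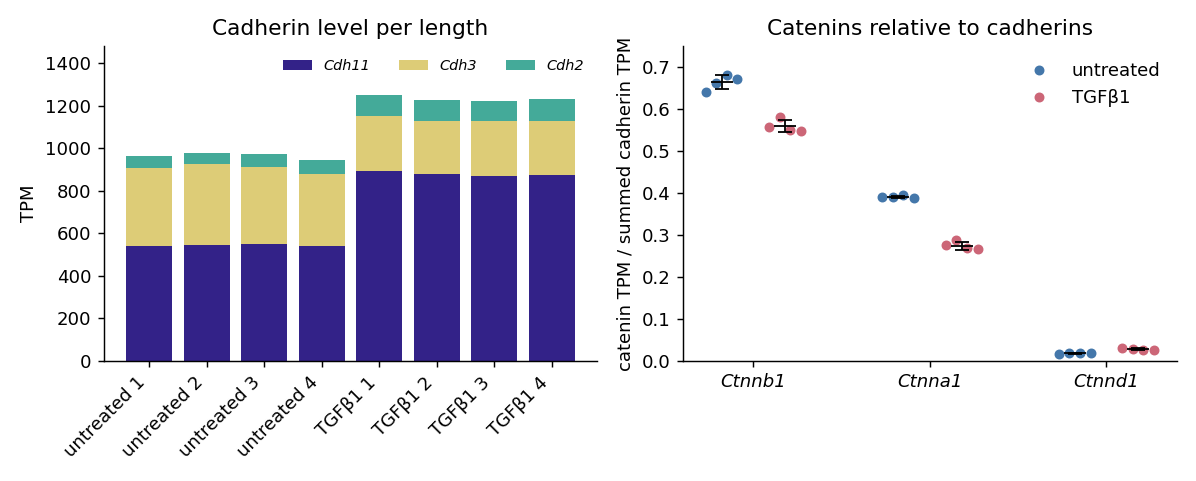
Stacked TPM of Cdh11, Cdh3 and Cdh2 in each of the 8 libraries (left) and TPM of each catenin divided by the summed cadherin TPM (right), where points are libraries and black bars are means ± SD. The cadherin sum goes from 963 to 1231 TPM on average as Cdh11 grows and Cdh3 shrinks, and relative to it Ctnna1 and Ctnnb1 go down and Ctnnd1 goes up.

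Other genes of the junction were taken from 8 lists chosen by known function. Of 109 distinct genes, 108 were matched and 73 tested, of which 59 passed the test, 36 higher and 23 lower, and 9 were past 2-fold. Over all genes tested these shares were 75.6%, 37.6%, 38.0% and 17.5%, so the counts of the lists are read against a background in which most genes passed. The lists had a median log2 fold change of 0.12 against -0.01 over all genes tested and 0.44 over the 6 tested members. All FDR values that follow are from the same edgeR test.

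Most of the further classical cadherins had too few reads to be tested. Of 13 further type I and type II cadherins, Cdh24 and Cdh26 were tested and both were higher. Cdh26 rose from 0.665 ± 0.293 to 9.83 ± 1.35 CPM (SD, n = 4; log2 fold change 3.91, edgeR FDR 3.53e-94) and Cdh24 from 20.6 ± 1.21 to 26.5 ± 0.967 CPM (SD, n = 4; log2 fold change 0.37, edgeR FDR 2.05e-08). Of the 12 desmosomal cadherins and plakophilins 4 were tested, Pkp1, Pkp2, Pkp3 and the desmosomal linker Dsp, and all 4 were higher, although Pkp3 had overlapping groups (edgeR FDR 0.0287). The number higher was 3 with the quasi-likelihood test, with DESeq2, at an FDR of 0.01, with a filter of 1 CPM, without a filter, and without untreated replicate 1, 2 or 3 or TGFβ1 replicate 4. Pkp1 rose from 0.134 ± 0.0792 to 3.61 ± 0.335 CPM (SD, n = 4; log2 fold change 4.70, edgeR FDR 1.60e-71), whereas Pkp2 rose from 36.4 ± 2.64 to 47.3 ± 2.71 CPM (SD, n = 4; log2 fold change 0.38, edgeR FDR 1.00e-08). In untreated cells Pkp1 and Dsp were near the floor, so they passed the filter on low counts through the treated group and had to differ, and the fold of Pkp1 is imprecise. The desmosomal cadherins Dsc1 to Dsc3 and Dsg1a to Dsg4 reached at most 5 counts in any library. Of 12 protocadherins, which adhere weakly and do not bind catenins, 5 were tested, 2 were higher and 2 lower, from Pcdh18 (log2 fold change 0.39) to Pcdh9 (log2 fold change -0.72).

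The catenin relatives split. Of 9 listed, 6 were tested, 2 were higher and 2 lower, and without untreated replicate 4 the number higher was 4. Jup, or plakoglobin, which can take the place of β-catenin on cadherin tails, rose from 77.1 ± 5.64 to 134 ± 8.10 CPM (SD, n = 4; log2 fold change 0.80, edgeR FDR 5.08e-39), while Pkp4, of the p120-catenin family, fell from 40.0 ± 2.54 to 26.9 ± 2.04 CPM (SD, n = 4; log2 fold change -0.58, edgeR FDR 1.16e-16). Of 15 nectins and actin linkers, all tested, 9 were higher and 6 lower. Nectins are immunoglobulin-like adhesion proteins beside the cadherins, and they moved in both directions. Nectin4 rose most, from 3.36 ± 0.431 to 12.1 ± 0.667 CPM (SD, n = 4; log2 fold change 1.85, edgeR FDR 3.50e-62), and Nectin3 fell most, from 44.3 ± 2.53 to 26.4 ± 1.44 CPM (SD, n = 4; log2 fold change -0.75, edgeR FDR 1.40e-32). Among the abundant linkers, the actin bundler Actn1 rose by a log2 fold change of 0.77, while vinculin (Vcl), which binds stretched α-catenin, had a log2 fold change of -0.12 and afadin (Afdn), which ties nectins to actin, one of -0.33.

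Of 22 genes for cadherin phosphatases, endothelial junction regulators and cadherin turnover, all tested, 13 were higher and 5 lower. The phosphatase gene Ptpn14 rose most, from 276 ± 19.0 to 673 ± 14.4 CPM (SD, n = 4; log2 fold change 1.28, edgeR FDR 1.61e-143). Rasip1, a RAP1 effector of endothelial junctions, fell most, at very low levels, from 0.989 ± 0.115 to 0.123 ± 0.0607 CPM (SD, n = 4; log2 fold change -2.88, edgeR FDR 8.09e-15), and its treated libraries were near the floor. Rasip1 thus passed the filter on low counts through the untreated group and had to differ, and its fold is imprecise. Adam10, which cleaves cadherin ectodomains, had a log2 fold change of -0.12.

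The genes that handle free β-catenin did not move one way. Of 15 tested genes of the destruction complex and of its nuclear partners, 3 were higher, 6 lower and 6 did not pass the test. Apc, a scaffold of the complex, rose from 101 ± 1.39 to 174 ± 8.16 CPM (SD, n = 4; log2 fold change 0.78, edgeR FDR 4.05e-66), and Amer1, which recruits it to the membrane, fell from 56.3 ± 1.02 to 32.4 ± 1.29 CPM (SD, n = 4; log2 fold change -0.80, edgeR FDR 1.45e-54). Of 12 feedback targets of β-catenin, 6 were tested, with Notum higher (log2 fold change 0.79) and Nkd1, Tcf7 and Znrf3 lower. Notum was low, at 0.776 ± 0.134 and 1.33 ± 0.111 CPM (SD, n = 4), and 38.1% of its exon bases overlap exons on the opposite strand. Nkd1 fell from 6.29 ± 0.852 to 2.31 ± 0.258 CPM (SD, n = 4; log2 fold change -1.44, edgeR FDR 7.34e-22). Axin2, the most widely used of these targets, was at 6.40 ± 0.903 and 6.64 ± 0.471 CPM (SD, n = 4; log2 fold change 0.05, edgeR FDR 0.724). Axin2, Tcf7 and Lef1 are in both of these lists, and Lef1 reached at most 5 counts.

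**Figure D5:**
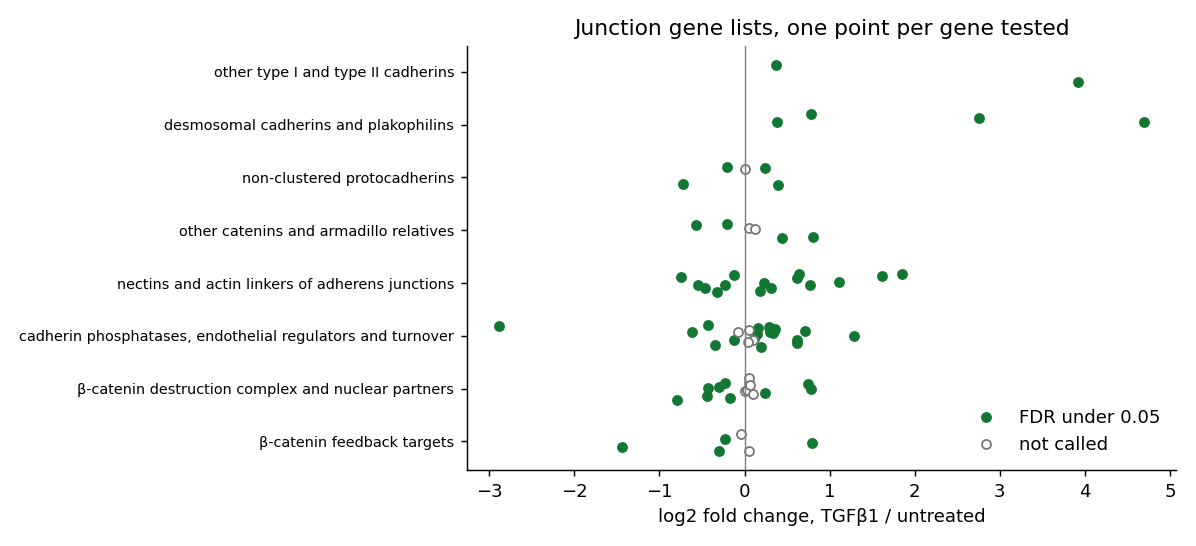
Log2 fold changes, TGFβ1 over untreated, of the tested genes of the 8 junction lists, 1 point per gene, filled at an FDR below 0.05 and open otherwise. The desmosomal genes, up to Pkp1 at 4.70, and the further cadherins, up to Cdh26 at 3.91, lie above 0. Of these, Pkp1, Dsp and Cdh26 passed the filter through their treated libraries. The β-catenin lists scatter on both sides of 0.

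Markers of other cell types differed between the groups as well. Summed mural cell markers went from 97.2 to 106 CPM per library in untreated to 376 to 397 CPM in treated cells, largely through Notch3 with 41.4 ± 2.93 and 286 ± 13.2 CPM (SD, n = 4). All 5 tested mural markers of the 8 listed were higher, among them Pdgfrb with 44.7 ± 1.51 and 69.3 ± 2.27 CPM. Over all genes tested, 37.6% were higher and 38.0% lower. Of the mural markers, Myh11 was at 0.239 ± 0.170 and 0.877 ± 0.248 CPM (SD, n = 4). It passed the filter on low counts through the treated group and had to be higher. Pdpn, which made up most of the summed endothelial and lymphatic markers, went from 342 ± 19.5 to 313 ± 5.25 CPM (SD, n = 4; log2 fold change -0.13, edgeR FDR 0.00701). Flt1 rose most in this list (log2 fold change 1.24). The sums ranged from 392 to 429 CPM and from 416 to 431 CPM, with 5 of the 8 tested markers higher and 2 lower. The number lower was 1 without untreated replicate 2, 3 or 4 or TGFβ1 replicate 2, with the replicate block, with DESeq2 and at an FDR of 0.01, and 3 without a filter on low counts. The sum of 8 fibroblast markers was 8065 to 10410 CPM and 10411 to 11848 CPM, but of the 5 tested only Col1a1 was higher, at 3459 ± 611 and 6057 ± 530 CPM (SD, n = 4), and 3 were lower. These were Pdgfra, which fell from 160 ± 10.5 to 57.8 ± 3.91 CPM, Dcn, from 312 ± 11.7 to 83.0 ± 6.48 CPM, and Thy1, from 89.2 ± 2.87 to 42.4 ± 2.31 CPM (SD, n = 4). The part of these differences in the changes of Cdh2, Cdh11 and the other members was not tested.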

How the data were processed

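Poly(A) RNA of 4 untreated and 4 TGFβ1-treated SV-LEC samples was sequenced as single 75-base reads with a stranded kit. The deposited values are whole-number read counts per gene, not normalized, which the authors made with bcl2fastq 2.20.0.422, STAR 2.7.3a and featureCounts 1.5.1 on GRCm38, per the submitters' processing notes. The annotation release and the strand, overlap and multimapping settings are not given in the sources used here.

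Counts were tested with edgeR 4.0.16 (R 4.3.3): TMM, filterByExpr, likelihood ratio test as in the study, and Benjamini-Hochberg adjustment over all 13818 genes tested, with calls at an FDR below 0.05. The fit was tested on a single simulated data set, in which only a small part of the genes was changed. There the likelihood ratio test made more false calls than its nominal rate and more than the quasi-likelihood test. Most genes passed the test in the real data, so that rate of false calls does not carry over to them. TPM used the summed exon length from GENCODE for GRCm38, matched to 55230 of 55471 genes, so lengths may differ from those the authors counted over. Promoters came from RefSeq (GRCm38.p6). Replicates differed by more than counting noise (chi-square per degree of freedom 2.37 to 7.84), so none was counted as a duplicate.

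The members and lists were chosen with earlier results of these data known. All 10 members are named. From each list, the called genes with the highest and lowest log2 fold change are named, others only if their TPM exceeded that of the lowest tested cadherin, and from the marker lists the most abundant gene and defining markers. Further genes (Cdh18, Pkp3, Dsp, Axin2, Lef1, Notch3, Cldn5, Tie1, Erg, Tcf7, Znrf3, Esrp2, Dcn, Thy1, Myh11, Krt8, Krt18, Kdr, Flt1, Fli1, Egfl7, Esam and the genes between Cdh3 and Cdh1) were chosen after their values were seen. Magi1 was not analysed here. Alternatives were the quasi-likelihood test, DESeq2 1.42.0, other scalings, filters, thresholds and prior counts, a replicate block, each library left out, and other length scales.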

Additional observations from a re-analysis of the deposited data

How the results depend on the processing

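The number of members called, 6, stayed within 1.5 times of that value under all 17 alternatives, and Ctnnb1 was the 1 call lost, with scaling to total counts (log2 fold change 0.08, edgeR FDR 0.0546), a scaling that moved the median of all genes from -0.01 to -0.07. The number past 2-fold, 1, was 0 with total counts, 0 without a filter on low counts and 0 to 1 when a library was left out, being 0 without untreated replicate 1 or TGFβ1 replicate 1. The cause was not tested. Over the alternatives, log2 fold changes ranged from 0.73 to 0.85 for Cdh2, -0.53 to -0.45 for Cdh3, 0.66 to 0.75 for Cdh11, -0.19 to -0.10 for Ctnna1 and 0.96 to 1.07 for Ctnnd1, and no direction turned. With the replicate number as a block, 6 members were called and 1 passed 2-fold, with Ctnna1 at an edgeR FDR of 0.0115 and Ctnnb1 at 0.00205. Same-numbered libraries did not deviate together (correlations -0.193 to -0.0336), so the numbers were not taken as pairs.

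Shares of the cadherin sum depended on the length scale. With mean transcript length, Cdh11 held 72.7% in untreated and 82.0% in treated cells, Cdh3 20.6% and 10.2%, and Cdh2 6.65% in untreated cells. With CPM and no length, Cdh11 held 70.2% and 80.4%, Cdh3 23.0% and 11.5%, and Cdh2 6.75% and 8.10%. Over the exon bases that Ctnnd1 does not share, an alternative chosen after seeing the data, its ratio to the cadherin sum was 0.0461 and 0.0715.

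Depth limits Cdh1, Cdh4, Cdh5 and Cdh13, which had at most 21 counts in a library and were not tested.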

Other observations

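Markers of other cell types gave values that belong to no comparison of the members. Of 12 epithelial markers 9 were above the floor in at least 1 library, and their sum was 54.7 to 65.7 CPM in untreated and 78.6 to 85.3 CPM in treated libraries. Of the 5 tested, 3 were higher and 1 lower, and the number lower was 0 without untreated replicate 1 or 2 or TGFβ1 replicate 1 or 2, with the replicate block and at an FDR of 0.01. The number higher was 1 with a filter of 1 CPM and 6 without a filter. Among those higher, Krt8 and Krt18 were at 0.273 and 0.226 CPM in untreated and at 1.11 and 1.24 CPM in treated cells. Krt8 and Krt18 passed the filter on low counts through the treated group and had to be higher. Epcam had 0 to 7 counts and the epithelial splicing factor gene Esrp1 0 to 3, while its paralog Esrp2 rose from 15.9 ± 0.589 to 34.1 ± 1.33 CPM (SD, n = 4; edgeR log2 fold change 1.11). Krt14, the most abundant of the list, was at 37.1 ± 2.41 and 38.8 ± 2.72 CPM (SD, n = 4; log2 fold change 0.07, edgeR FDR 0.353).

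Of 8 leukocyte markers, 2 were above the floor, and Ptprc had 0 to 1 counts. The sum of this list, mostly Cd68, a lysosomal protein gene, was 6.02 to 8.25 CPM and 16.2 to 18.6 CPM.

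Cdh18, a type II cadherin that was not tested, had 2 to 3 counts in untreated and 7 to 32 counts in treated libraries. The interval between Cdh3 and Cdh1 holds 2 annotated genes, Gm10073 and 1110028F18Rik.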
